A study of Mus musculus with 12 samples.

Results

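The 10 genes described here encode the core of the inflammasome, the protein complex that turns signs of infection or damage into caspase activation and cell lysis. They were picked out by symbol from the 55401 genes of the table: the sensors Nlrp3, Mefv, Aim2, Nlrc4 and Nlrp1b, the Nlrp3 partner Nek7, the adaptor Pycard, the proteases Casp1 and Casp4, and the pore-forming Gsdmd. All 10 were found in the table and all 10 passed the filter on low values. Their RNA was measured in bone-marrow-derived macrophages (BMDMs) of C57BL/6J mice with the genotype Irx3-/-, so every group, the control included, lacks the cells' own Irx3, an Iroquois homeobox gene whose product binds DNA. Adeno-associated virus (AAV) delivered GFP in the control group, wild-type IRX3 in the group IRX3_WT, and IRX3 with 1 serine replaced by alanine in the groups IRX3_S361A and IRX3_S389A. There were 3 libraries per group and 12 in all. Each culture had grown for 7 days with 20 nM of the macrophage growth factor M-CSF and then received lipopolysaccharide (LPS) at 100 ng/ml for 4 h, so no group shows the unstimulated level. The sources used here give neither the age and sex of the mice, nor the promoter that drives the constructs, nor the species of the IRX3 sequence.

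Inflammasome activation in macrophages is usually described in steps. A priming signal such as LPS, read by Toll-like receptor 4, raises transcripts of sensors and of the interleukin 1 precursors. A second signal then makes a sensor assemble, through the adaptor ASC (encoded by Pycard), a platform that activates caspase-1. Caspase-1 matures interleukins 1 beta and 18 and cleaves gasdermin D, whose fragment forms membrane pores, while caspase-11 (encoded by Casp4) binds LPS in the cytosol and cleaves gasdermin D directly. These libraries measure transcripts after priming. They hold no measure of assembly, cleavage or cell death.

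The labels do not say whether the 3 libraries of a group came from separate animals or cultures, so p-values measure the spread between these libraries only. Recovered reads ran from 17149058 to 20108002 per library, and every member had at least 118 normalized counts in every library. Irx3 itself had no read in the 3 GFP libraries and 177 ± 16.3 (SD, n = 3), 349 ± 21.5 and 187 ± 20.2 normalized counts with IRX3_WT, IRX3_S361A and IRX3_S389A. The IRX3_S361A libraries thus also held more Irx3 RNA than the IRX3_WT and IRX3_S389A libraries, and in both of those comparisons the effect of the altered serine cannot be told apart from that of more Irx3 RNA. All 8 macrophage markers examined (among them Adgre1, Csf1r and Cd68) were present, with a summed level of 359792 to 370143 in GFP and 389296 to 429929 in the other groups. Lyz2 was the largest part of that sum (mean 212297 in GFP). With IRX3_WT over GFP, Mertk rose by 0.66 on the log2 scale (limma adjusted p = 1.22e-13), Cd14 by 0.44 (1.16e-14) and Adgre1 by 0.25 (2.04e-09). Fcgr1 fell by 0.19 (limma adjusted p = 0.000359), and Csf1r, Cd68, Itgam and Lyz2 did not pass the test. The 10 neutrophil markers summed to 26.7 to 41.8 in GFP, 43.2 to 64.4 with IRX3_WT, 28.3 to 49.7 with IRX3_S361A and 33.5 to 51.3 with IRX3_S389A, with Ly6g, Mpo and Elane at 0 in every group. Among them S100a8 rose from a mean of 12.8 in GFP to 29.2 with IRX3_WT (limma adjusted p = 0.00356). Camp went from 12.8 to 21.3 without passing the test (limma adjusted p = 0.24). The means of S100a9 (2.76 to 0.379), Ltf (3.05 to 0.759) and Cxcr2 (0.606 to 0.346) were lower with IRX3_WT. That of Ngp (0.309 to 0.674) was higher, and these genes were too low to be tested. The 7 dendritic cell markers summed to 117 to 151 in GFP and 137 to 186 in the others, mostly Xcr1. Of these, Ccr7 rose from a mean of 6.65 in GFP to 17.2 with IRX3_WT (limma adjusted p = 0.0288). The 8 lymphocyte markers summed to 75.1 to 104. The 6 stromal markers moved with the groups, from 84.7 to 120 in GFP to 238 to 251 with IRX3_WT, 127 to 190 with IRX3_S361A and 199 to 211 with IRX3_S389A. Most of that sum was Pdgfrb. The group means of the other 5 stromal markers (Col1a1, Col1a2, Col3a1, Dcn and Pdgfra) lay between 0.616 and 14.6, and of these Dcn rose from 1.22 in GFP to 8.17 with IRX3_S389A (limma adjusted p = 0.0257). The part of these markers in the results was not tested. In bulk RNA, fewer cells that express a gene and less RNA per cell cannot be told apart.

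The genes lie on 7 chromosomes. In GRCm38, Nlrp3 (ENSMUSG00000032691.14) covers chr11:59541568-59566956 on the plus strand and Nlrp1b (ENSMUSG00000070390.12) chr11:71153102-71230733 on the minus strand. Aim2 (ENSMUSG00000037860.15) covers chr1:173350879-173466040 on the plus strand and Nek7 (ENSMUSG00000026393.10) chr1:138482875-138620141 on the minus strand. Nlrc4 (ENSMUSG00000039193.9) covers chr17:74425438-74459142, Mefv (ENSMUSG00000022534.14) chr16:3707218-3718097 and Pycard (ENSMUSG00000030793.4) chr7:127989708-127993867, all on the minus strand. Casp1 (ENSMUSG00000025888.6) at chr9:5298517-5307265 and Casp4 (ENSMUSG00000033538.13) at chr9:5308828-5336783 are direct neighbours on the plus strand. Gsdmd (ENSMUSG00000022575.5) covers chr15:75862327-75867408 on the plus strand. All 10 are annotated as protein-coding. The annotated gene Gm45205 shares 12.8% of the exon bases of Pycard, and Gm28501 shares 1.60% of those of Nek7. Whether counting used strand is not given, so the values of Pycard and Nek7 may include reads of these neighbours.

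Promoter sequence was available for 9 of the 10 genes (RefSeq, build GRCm38.p6), in 12 windows of 250 bases before a transcription start, and was searched on both strands for motifs of factors known from LPS responses and for the Iroquois motif. The kappaB motif, bound by NF-kappaB, was found for Nlrp3 and Casp4, in 3 of the 12 windows. It is present in 7.25% of all 32851 windows of that length. The 2 Casp4 windows (chr9:5308599-5308848 and chr9:5308610-5308859) overlap and hold the same matches, so 1 region is counted in both. The letters ACANNTGT, reported for Iroquois factors, were found for Casp1 and Nlrp1b and are present in 6.31% of all windows; every such match also contains the general E-box letters CANNTG. The C/EBP letters TTNNGNAAT matched once, in Mefv, against 10.2% of all windows. The AP-1 letters TGANTCA (6.75% of all windows) and the interferon response element (IRF response element, 2.98%) matched in none of the 12. The 4 windows below are shown because they hold the kappaB matches and the Iroquois matches, which are in capitals. They are written 5′ to 3′ on the gene's own strand and stop where an annotated exon begins.
Nlrp3 (chr11:59541319-59541567, plus strand, kappaB): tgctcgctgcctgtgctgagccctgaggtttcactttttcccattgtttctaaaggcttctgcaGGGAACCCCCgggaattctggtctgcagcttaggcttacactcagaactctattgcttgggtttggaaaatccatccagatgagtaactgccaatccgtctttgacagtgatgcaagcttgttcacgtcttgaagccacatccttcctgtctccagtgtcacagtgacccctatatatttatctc
Casp4 (chr9:5308599-5308827, plus strand, kappaB): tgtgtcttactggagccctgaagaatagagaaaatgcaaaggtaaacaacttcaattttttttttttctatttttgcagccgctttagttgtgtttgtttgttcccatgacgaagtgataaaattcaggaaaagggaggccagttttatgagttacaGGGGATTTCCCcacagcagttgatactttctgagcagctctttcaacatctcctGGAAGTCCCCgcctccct
Casp1 (chr9:5298267-5298516, plus strand, Iroquois): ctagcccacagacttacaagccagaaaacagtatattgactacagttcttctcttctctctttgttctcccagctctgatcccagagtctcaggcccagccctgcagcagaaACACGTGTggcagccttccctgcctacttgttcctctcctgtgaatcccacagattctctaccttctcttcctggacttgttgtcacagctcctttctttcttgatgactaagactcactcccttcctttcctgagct
Nlrp1b (chr11:71201457-71201706, minus strand, Iroquois): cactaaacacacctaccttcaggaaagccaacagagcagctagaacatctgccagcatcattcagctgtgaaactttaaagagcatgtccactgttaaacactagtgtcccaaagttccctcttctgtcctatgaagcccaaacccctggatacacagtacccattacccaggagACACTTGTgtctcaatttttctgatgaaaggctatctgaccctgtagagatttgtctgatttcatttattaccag
In Casp1 the matched letters ACACGTGT lie 138 to 131 bases before the start. In Nlrp1b the match ACACTTGT lies 75 to 68 bases before the start that belongs to the window shown, which is inside the span of the gene. The other Nlrp1b window (chr11:71230734-71230983), at the annotated 5′ end of the gene, held no match to any motif searched. The Casp4 window holds 3 kappaB matches, of which 2 overlap in 1 capital run. A match describes letters in a window. No binding was measured.

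Wild-type IRX3 was first set against GFP, both delivered to cells that lack their own Irx3. Of the 10 genes, 7 were higher with IRX3_WT (Nlrp3, Mefv, Aim2, Nlrc4, Casp1, Casp4 and Gsdmd), 1 was lower (Nlrp1b), and Nek7 and Pycard did not pass the test. The test was limma on log2(normalized count + 1), with p-values adjusted by Benjamini-Hochberg over 13369 genes and a threshold of 0.05. It called 39.6% of all genes tested, 21% as higher and 18.6% as lower. The median log2 difference of the 10 genes was 0.31, and that of all genes tested -0.01. Deposited totals also differed between the groups, from 17325311 to 17469765 in GFP and from 19513613 to 19796325 with IRX3_WT. Scaling all libraries to equal totals moved the median of all genes by -0.18 and turned the split over all genes from 2805 higher and 2483 lower to 1395 higher and 5519 lower. Under that scaling the members split into 5 higher and 3 lower, with a median of 0.14.

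**Figure D1:**
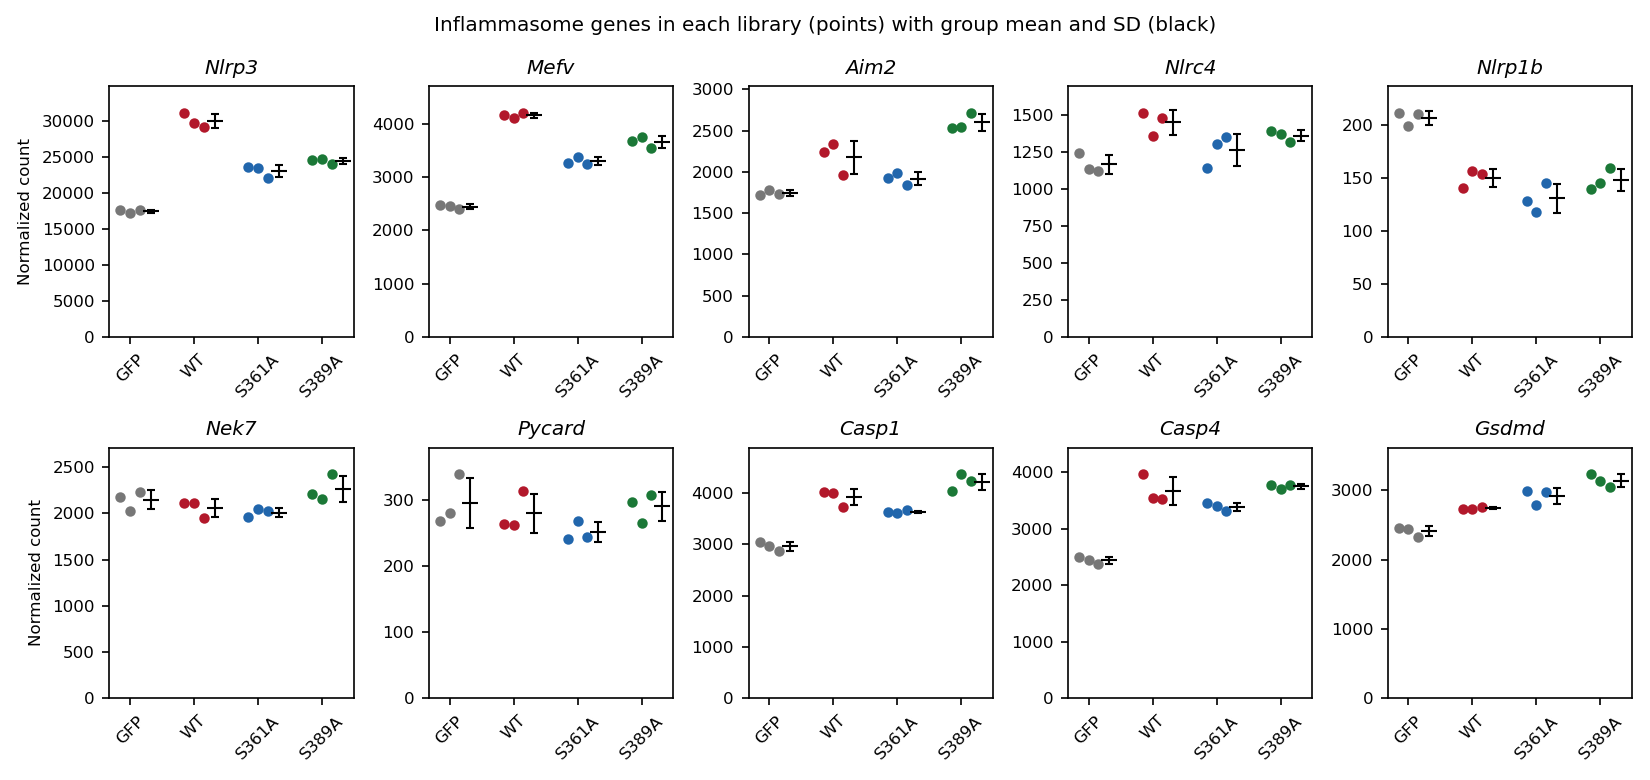
Normalized count (vertical axis, from 0, its own scale in each panel) of each of the 10 genes in the 3 libraries of each construct (points), with the group mean and SD in black. Nlrp3 and Mefv are highest in every IRX3_WT library, Aim2, Casp1 and Gsdmd in the IRX3_S389A libraries, and Nlrp1b in the GFP libraries.

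Nlrp3, the sensor of potassium efflux and many other danger signals, was the most abundant of the 10 genes. Its normalized counts were 17541, 17178 and 17598 in the GFP libraries, 31061, 29665 and 29104 with IRX3_WT, 23603, 23485 and 22078 with IRX3_S361A, and 24590.3, 24704 and 23924 with IRX3_S389A. The 4 groups did not overlap, with every GFP library lowest, every IRX3_WT library highest and both substituted forms between. Nlrp3 rose 1.72-fold from GFP to IRX3_WT (log2 difference 0.78, SE 0.03, limma adjusted p = 1.17e-21). With IRX3_S361A it fell by 0.38 on the log2 scale against IRX3_WT (limma adjusted p = 1.88e-11) and with IRX3_S389A by 0.29 (limma adjusted p = 1.14e-08). Both substituted forms stayed above GFP, by 0.40 and 0.48 on the log2 scale. The gap between them was 0.08 (95% interval 0.02 to 0.15) and did not pass the test (limma adjusted p = 0.0979). The 5 Nlrp3 calls held in all 22 settings tried for each comparison.

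Mefv encodes pyrin, an inflammasome sensor that responds to bacterial toxins. The gene had 2475, 2459 and 2392 normalized counts in GFP, 4156, 4115 and 4203 with IRX3_WT, 3265, 3382 and 3246 with IRX3_S361A, and 3676, 3755 and 3545 with IRX3_S389A. These groups did not overlap either and stood in the order of Nlrp3. Mefv rose 1.70-fold with IRX3_WT over GFP (log2 difference 0.77, SE 0.04, limma adjusted p = 1.39e-18). Against IRX3_WT it fell by 0.33 on the log2 scale with IRX3_S361A (limma adjusted p = 4.67e-08) and by 0.18 with IRX3_S389A (limma adjusted p = 0.000922). The difference between the 2 substituted forms passed the test, IRX3_S389A being higher by 0.15 (limma adjusted p = 0.0102). The call between the substituted forms was lost with equal totals (limma adjusted p = 0.121). The same held without IRX3_S361A replicate 3 (limma adjusted p = 0.0615) or IRX3_S389A replicate 2 (0.0773). It was also lost with edgeR on 9 libraries (difference 0.14), a fit that keeps only replicate 1 of IRX3_S361A.

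Aim2, the sensor of cytosolic double-stranded DNA, had another order. Its normalized counts were 1719, 1780.0 and 1736 in GFP, 2235, 2332 and 1957 with IRX3_WT, 1925, 1989.8 and 1835 with IRX3_S361A, and 2535, 2548 and 2714 with IRX3_S389A. The IRX3_S389A libraries were the highest and overlapped no other group, whereas 1 IRX3_WT library lay within the range of IRX3_S361A. Aim2 rose 1.24-fold with IRX3_WT over GFP (log2 difference 0.31, SE 0.05, limma adjusted p = 5.18e-06). It rose further with IRX3_S389A, by 0.26 over IRX3_WT (limma adjusted p = 0.000376) and by 0.57 over GFP. The difference of 0.44 between IRX3_S389A and IRX3_S361A was the widest of the 10 genes in that comparison (limma adjusted p = 1.5e-07). With IRX3_S361A, Aim2 was 0.18 lower than with IRX3_WT (limma adjusted p = 0.0139). That call was lost with equal totals (limma adjusted p = 0.109) and with the GC trend removed (0.116). It was lost, too, without IRX3_WT replicate 1 (limma adjusted p = 0.078) or 2 (0.124) or IRX3_S361A replicate 3 (0.099). The same held with edgeR on 9 libraries (difference -0.18), which keep only replicate 1 of IRX3_S361A. Aim2 with IRX3_S361A was 0.13 above GFP on the log2 scale and just missed the threshold (limma adjusted p = 0.0514).

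Nlrc4, which signals for NAIP receptors of bacterial flagellin and secretion needles, moved less. It had 1239.9, 1135 and 1123 normalized counts in GFP, 1512, 1353 and 1477 with IRX3_WT, 1138, 1303 and 1347 with IRX3_S361A, and 1389, 1372 and 1315 with IRX3_S389A. Every IRX3_WT library was above every GFP library, while the IRX3_S361A libraries overlapped the GFP range and reached above it. The gene rose by 0.31 on the log2 scale with IRX3_WT over GFP (SE 0.06, limma adjusted p = 4.37e-05) and by 0.22 with IRX3_S389A (limma adjusted p = 0.00287), calls that equal totals ended (0.0576 and 0.486). With IRX3_S361A it was 0.20 below IRX3_WT (limma adjusted p = 0.016). This call was lost with equal totals (0.112) and without IRX3_WT replicate 1 (0.103) or 3 (0.062) or IRX3_S361A replicate 1 (0.193).

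The sensor gene Nlrp1b was the least abundant member and the one that fell. Its normalized counts were 212, 199 and 210.2 in GFP, 141, 157 and 154 with IRX3_WT, 129, 118 and 146 with IRX3_S361A, and 139, 145 and 159.6 with IRX3_S389A. All 9 libraries with an IRX3 construct were below all 3 GFP libraries and overlapped each other. Against GFP, Nlrp1b fell by 0.46 with IRX3_WT (SE 0.12, limma adjusted p = 0.00218), by 0.66 with IRX3_S361A (3.92e-05) and by 0.48 with IRX3_S389A (0.00149), all on the log2 scale. These 3 calls held in all 22 settings. Neither substituted form passed the test against IRX3_WT, with log2 differences of -0.20 (95% interval -0.45 to 0.04) for IRX3_S361A and -0.02 (-0.27 to 0.22) for IRX3_S389A. Nlrp1b has close relatives in the mouse genome, Nlrp1a among them, and how the counting treated reads shared between copies is not given.

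Nek7, a kinase that binds NLRP3 and lets it assemble, did not follow Nlrp3. The libraries held 2181, 2029.6 and 2225 normalized counts in GFP, 2114, 2113 and 1947 with IRX3_WT, 1955, 2044 and 2025 with IRX3_S361A, and 2209, 2149 and 2419.7 with IRX3_S389A. The GFP range overlapped those of all 3 other groups. The log2 difference between IRX3_WT and GFP was -0.06 (95% interval -0.16 to 0.04, limma adjusted p = 0.363). With equal totals it was -0.24 (0.000126) and with the GC trend removed -0.15 (0.00716), so whether Nek7 was lower depends on the scaling. Between the 2 substituted forms, Nek7 was 0.17 higher with IRX3_S389A (limma adjusted p = 0.0221). Equal totals ended that call (limma adjusted p = 0.135), as did removing the GC trend (0.0512). Leaving out IRX3_S361A replicate 1 (limma adjusted p = 0.0844) or 3 (0.0575) or IRX3_S389A replicate 3 (0.19) ended it too. So did edgeR on 9 libraries (difference 0.24), which keep only replicate 1 of IRX3_S361A.

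Pycard, the adaptor that links NLRP3, AIM2 and pyrin to caspase-1, was the only member without a difference among the 4 groups past the test (limma adjusted p = 0.198). It had 268, 279.9 and 338 normalized counts in GFP, 263, 263 and 313 with IRX3_WT, 241, 268 and 243 with IRX3_S361A, and 296, 266 and 308 with IRX3_S389A. All groups overlapped, and GFP replicate 3 was the highest library. The difference between IRX3_WT and GFP was -0.08 on the log2 scale, with a 95% interval from -0.28 to 0.13. The upper bound of that interval lies below the log2 rise of each of the 7 members called higher. It overlaps the 95% interval of Gsdmd, which runs from 0.10 to 0.27. With equal totals Pycard was called lower in IRX3_WT than in GFP (-0.25, limma adjusted p = 0.0365) and in IRX3_S361A (-0.34, 0.00921).

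**Figure D2:**
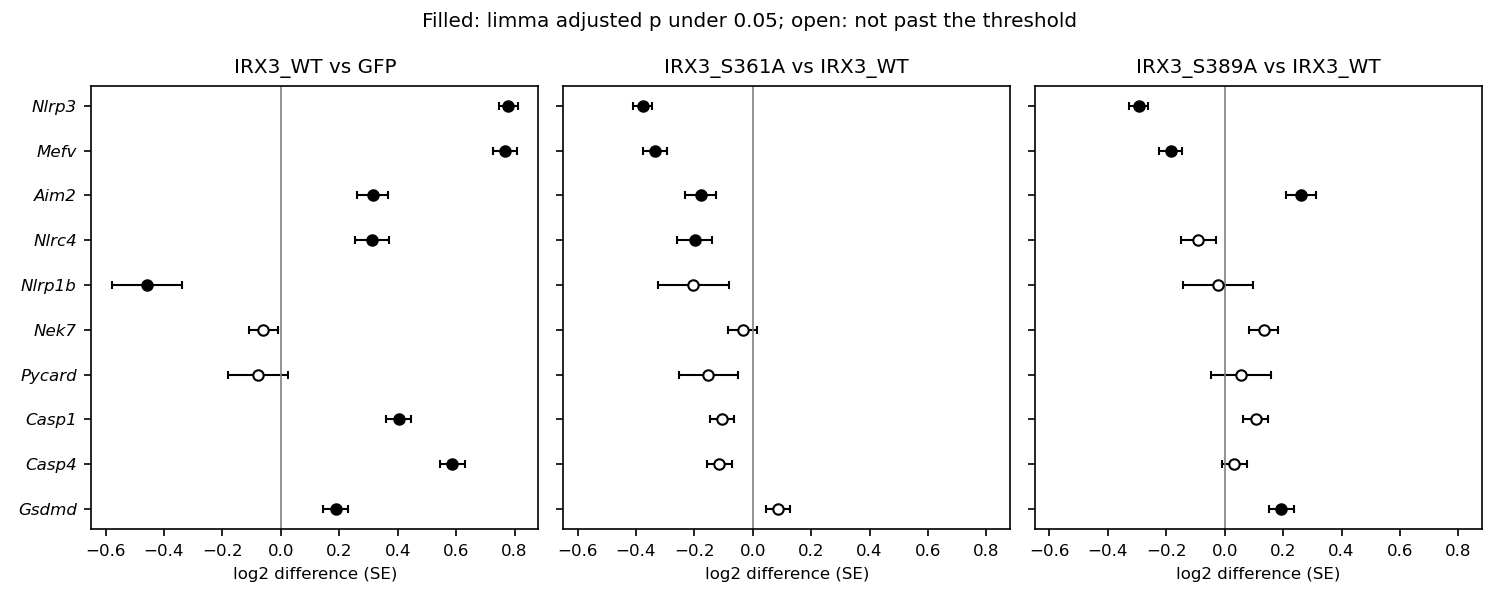
Log2 difference (horizontal axis, with SE) of the 10 genes in 3 comparisons, with filled points where the limma adjusted p was under 0.05. Against GFP, 7 genes lie to the right of 0 with IRX3_WT. Against IRX3_WT, Nlrp3 and Mefv lie to the left with both substituted forms, and Aim2 lies to the left with IRX3_S361A and to the right with IRX3_S389A.

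The 2 caspase genes rose with each IRX3 construct. Casp1, the protease that all canonical inflammasomes share, had 3044, 2966 and 2858 normalized counts in GFP, 4013, 3987 and 3729 with IRX3_WT, 3622, 3612 and 3656 with IRX3_S361A, and 4040.2, 4356 and 4223 with IRX3_S389A. No group overlapped another, and the order ran from GFP through IRX3_S361A and IRX3_WT to IRX3_S389A. Against GFP, Casp1 rose 1.32-fold with IRX3_WT (log2 difference 0.40, SE 0.04, limma adjusted p = 2.14e-10), by 0.30 with IRX3_S361A and by 0.51 with IRX3_S389A. The substituted forms did not pass the test against IRX3_WT, at -0.11 for IRX3_S361A (limma adjusted p = 0.0785) and 0.11 for IRX3_S389A (0.0813). They differed from each other by 0.21 (limma adjusted p = 0.000397). That call was lost with edgeR on 9 libraries (difference 0.19), which keep only replicate 1 of IRX3_S361A.

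Casp4, whose product is the cytosolic LPS receptor caspase-11, had 2496, 2448 and 2374 normalized counts in GFP, 3957, 3537 and 3514 with IRX3_WT, 3445, 3390.3 and 3315 with IRX3_S361A, and 3772, 3701 and 3773 with IRX3_S389A. The GFP libraries were lowest without overlap, and the IRX3_WT libraries spread across the IRX3_S389A range. Casp4 rose by 50.2% with IRX3_WT over GFP (log2 difference 0.59, SE 0.04, limma adjusted p = 4.04e-14), and on the log2 scale by 0.47 with IRX3_S361A and by 0.62 with IRX3_S389A. Its difference of -0.11 between IRX3_S361A and IRX3_WT missed the threshold (limma adjusted p = 0.0681). The difference of 0.15 between the substituted forms passed it (limma adjusted p = 0.0216). It did not pass with equal totals (limma adjusted p = 0.163) or the GC trend removed (0.0856). Nor did it pass without IRX3_S361A replicate 2 (limma adjusted p = 0.0562) or 3 (0.108) or IRX3_S389A replicate 1 (0.0694) or 3 (0.0614). With edgeR on 9 libraries, which keep only replicate 1 of IRX3_S361A, it did not pass either (difference 0.13).

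Gsdmd, the gene of the pore-forming substrate, had 2454, 2448 and 2327 normalized counts in GFP, 2738, 2732 and 2764 with IRX3_WT, 2987, 2786 and 2974 with IRX3_S361A, and 3231, 3139 and 3053 with IRX3_S389A. The 4 groups did not overlap, and both substituted forms stood above IRX3_WT, which the group means of none of the other 9 genes did. Gsdmd rose 1.14-fold with IRX3_WT over GFP (log2 difference 0.19, SE 0.04, limma adjusted p = 0.000438). With equal totals that difference was 0.01 (limma adjusted p = 0.841). Against GFP it also rose by 0.27 with IRX3_S361A (limma adjusted p = 2.8e-06) and by 0.38 with IRX3_S389A (1.73e-09). Over IRX3_WT it rose by 0.19 with IRX3_S389A (limma adjusted p = 0.0011), and the difference of 0.09 with IRX3_S361A did not pass the test (0.183).

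Across the 10 genes, IRX3_S361A against IRX3_WT had 4 lower (Nlrp3, Mefv, Aim2 and Nlrc4) and 0 higher, where 15.5% of all genes tested were called, 9.07% as lower and 6.43% as higher. The members' median was -0.17 and that of all genes 0.01. Leaving out 1 IRX3_WT library brought Casp1 (limma adjusted p = 0.0293 without replicate 3) and Casp4 (0.0418 without replicate 2 and 0.0345 without replicate 3) past the threshold as lower. With the GC trend removed, however, the Casp4 difference was 0.0057 (limma adjusted p = 0.954). The Casp1 difference ranged from -0.14 to -0.02 over the 22 settings. Over all genes the split of 859 higher and 1212 lower became 1805 and 754 with equal totals, which left Nlrp3 and Mefv lower and made Gsdmd higher (0.15, limma adjusted p = 0.0111). IRX3_S389A against IRX3_WT had 2 higher (Aim2 and Gsdmd) and 2 lower (Nlrp3 and Mefv), where 15.3% of all genes were called, 8.21% as higher and 7.08% as lower, and the members' median was 0.04. With equal totals Nek7 was also called higher (0.14, limma adjusted p = 0.0456). With the GC trend removed 6 members were called in place of 4, Casp1 (0.15, limma adjusted p = 0.00402) and Nek7 (0.19, 0.00195) being added as higher.

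Against the GFP control, IRX3_S361A had 5 members higher and 1 lower, with 25.9% of all genes called, 14.9% higher and 10.9% lower. IRX3_S389A had 7 higher and 1 lower, the same 8 genes and directions as IRX3_WT, with 35% of all genes called, 18.8% higher and 16.2% lower. These comparisons share the 3 GFP libraries with each other and with IRX3_WT against GFP. Equal totals turned the split over all genes from 1996 higher and 1461 lower to 1047 and 3226 for IRX3_S361A, and from 2516 and 2160 to 1334 and 5397 for IRX3_S389A. The members then split into 5 higher and 3 lower, and 6 higher and 1 lower. IRX3_S389A against IRX3_S361A had 5 members higher (Aim2, Mefv, Nek7, Casp1 and Casp4) and 0 lower, with 10.2% of all genes called, 7% higher and 3.16% lower. Equal totals changed the split over all genes from 936 higher and 423 lower to 597 and 1053, and kept only Aim2 and Casp1 among the members. Tested for a difference between any of the 4 groups, 9 of the 10 genes passed, as did 44.2% of all genes.

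Levels of different genes can be compared only per length of transcript. Per kilobase of coding transcript, the GFP libraries held 4337 ± 56.8 (SD, n = 3) normalized counts of Nlrp3, 1975 ± 62.6 of Casp1, 1700 ± 42.7 of Casp4 and 1345 ± 40.0 of Gsdmd. Mefv followed with 892 ± 16.1, Aim2 with 615 ± 11.1, Nek7 with 408 ± 19.5 and Nlrc4 with 370 ± 20.4. The adaptor Pycard at 77.8 ± 9.89 and Nlrp1b at 50.1 ± 1.68 were far below the rest. With IRX3_WT, Casp1 (2612 ± 105) and Casp4 (2557 ± 174) did not differ beyond their spread, nor did Gsdmd (1532 ± 9.47) and Mefv (1518 ± 16.1). Nek7 and Nlrc4 changed places, and with IRX3_S389A they stood at 430 ± 27.1 and 431 ± 12.3. The length used matters for this order: over all annotated exons Casp4 drops from the third to the fifth place in GFP, and the annotated transcript of Pycard, at 3800 bases, lowers its level per kilobase.

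**Figure D3:**
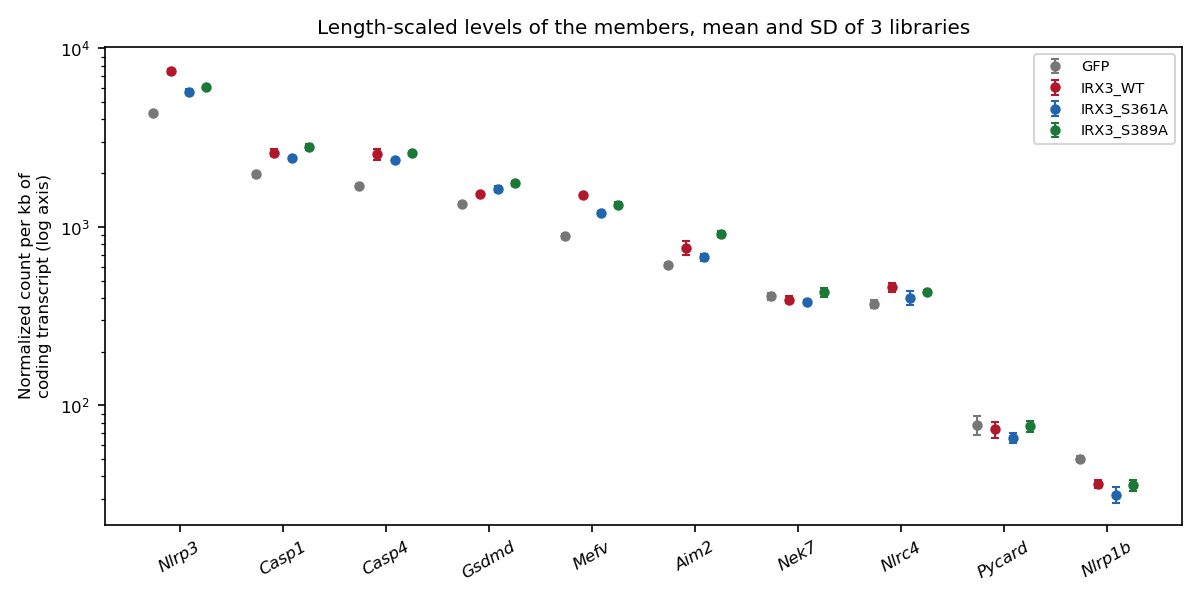
Normalized count per kilobase of coding transcript (vertical log axis) of the 10 genes, ordered by their level in GFP, with mean and SD of 3 libraries for each construct. Nlrp3 is highest and Nlrp1b lowest with every construct, and Nek7 and Nlrc4 are the neighbours that change places.

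Other genes of the pathway were taken from 8 lists with 86 genes, of which 85 were in the table and 73 were tested. The lists were chosen with earlier results of these data known. Their counts, here and by list below, were made on the deposited scale only and not with equal totals. With IRX3_WT against GFP, 37 of the 73 were higher and 13 lower, where 21% and 18.6% of all genes tested were. With IRX3_S361A against IRX3_WT, 5 were higher and 17 lower (6.43% and 9.07% of all genes), and with IRX3_S389A against IRX3_WT, 22 were higher and 6 lower (8.21% and 7.08%). The difference between IRX3_S389A and IRX3_S361A had 29 higher and 1 lower (7% and 3.16%). Medians over the 73 genes were 0.23, -0.04, 0.12 and 0.14 in the same order, against -0.01, 0.01, 0.00 and 0.00 over all genes.

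The HIN200 family, the DNA-binding proteins encoded beside Aim2, had 7 of 10 tested genes higher and 0 lower with IRX3_WT over GFP (21% and 18.6% of all genes). With IRX3_S389A over IRX3_WT 5 of the 10 were higher (8.21% of all genes) and 0 lower, and with IRX3_S361A against IRX3_WT 3 were lower (9.07%) and 0 higher. Ifi203 had 4913 ± 253 (SD, n = 3) normalized counts in GFP, 6893 ± 449 with IRX3_WT, 6461 ± 357 with IRX3_S361A and 8591 ± 198 with IRX3_S389A. Ifi204 had 5553 ± 211, 7741 ± 529, 7170.0 ± 129 and 8754 ± 126. Aim2 had the same order of groups. Members of this family are close copies of each other, so reads may be split between them.

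Among other sensors, 3 of 10 rose and 2 fell with IRX3_WT over GFP, shares near the 21% and 18.6% of all genes. Zbp1, a sensor of Z-form nucleic acids, rose by 0.33 on the log2 scale, and Naip2, a receptor upstream of Nlrc4, by 0.35. Nlrp10 fell by 0.73. Cgas, the enzyme that makes cyclic GMP-AMP on DNA, was 0.09 above GFP without passing the test (limma adjusted p = 0.34) and rose by 0.31 with IRX3_S389A over IRX3_WT (0.000993). Of 7 other caspase genes, 1 rose and 2 fell with IRX3_WT over GFP, again near the shares of all genes (21% and 18.6%), and 5 rose with IRX3_S389A over IRX3_WT (8.21% of all genes). Casp8, which links death receptors to the inflammasome, rose by 0.23 with IRX3_S389A over IRX3_WT (limma adjusted p = 0.000376), and the apoptosis initiator Casp9 fell by 0.61 with IRX3_WT over GFP.

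Only 2 of 9 other genes of pore formation and membrane rupture passed the filter. Ninj1, whose product ruptures the membrane after pore formation, rose from 4309 ± 251 to 5934 ± 281 normalized counts with IRX3_WT over GFP and fell by 0.19 on the log2 scale with IRX3_S361A against IRX3_WT. Gsdme, a gasdermin cut by caspase-3, fell from 184 ± 16.0 to 134 ± 11.2 and was lowest with IRX3_S389A, at 89.6 ± 17.9. Of the cytokine substrates and their antagonists, 4 of 5 tested rose with IRX3_WT over GFP (21% of all genes). Against IRX3_WT, 2 fell with IRX3_S361A (9.07% of all genes), and 2 fell and 1 rose with IRX3_S389A (7.08% and 8.21%). Il1b went from 15992 ± 623 in GFP to 42476 ± 2304 with IRX3_WT, 30735 ± 2949 with IRX3_S361A and 29468 ± 1167 with IRX3_S389A, the order of Nlrp3 except between the substituted forms. Il18 rose from 210.2 ± 20.0 to 388 ± 91.3 with IRX3_WT. Il1rn, the receptor antagonist, went from 8764 ± 259 to 11610 ± 25.5 and reached 15000 ± 452 with IRX3_S389A, where it was 0.37 above IRX3_WT.

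Activators and licensing factors had 11 of 21 higher and 5 lower with IRX3_WT over GFP (21% and 18.6% of all genes). Against IRX3_WT they had 3 higher and 6 lower with IRX3_S361A (6.43% and 9.07%), and 4 higher and 0 lower with IRX3_S389A (8.21% and 7.08%). The guanylate-binding protein genes Gbp2, Gbp3 and Gbp7, whose products coat bacteria and expose their LPS to caspase-11, rose by 0.84, 0.86 and 0.86 on the log2 scale with IRX3_WT, and fell by 0.25, 0.35 and 0.27 with IRX3_S361A against it. With IRX3_S389A against IRX3_WT their differences of 0.09, -0.04 and 0.06 did not pass the test (limma adjusted p = 0.171, 0.624 and 0.416). Gbp7 shares 11.3% of its exon bases with other annotated sequence. Inhibitors had 4 of 9 higher and 3 lower with IRX3_WT over GFP (21% and 18.6% of all genes). Tnfaip3, which encodes the ubiquitin-editing enzyme A20, rose by 0.96, fell by 0.35 with IRX3_S361A against IRX3_WT and by 0.12 with IRX3_S389A. Among transcription factors of the members, 6 of 9 rose with IRX3_WT over GFP and 0 fell (21% and 18.6% of all genes). Nfkb1 rose by 0.59 and Rela by 0.46, both NF-kappaB subunits, and the interferon response factor gene Irf1 by 0.58. With IRX3_S389A against IRX3_WT, Nfkb1 fell by 0.15 while Irf1 rose by 0.27.

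**Figure D4:**
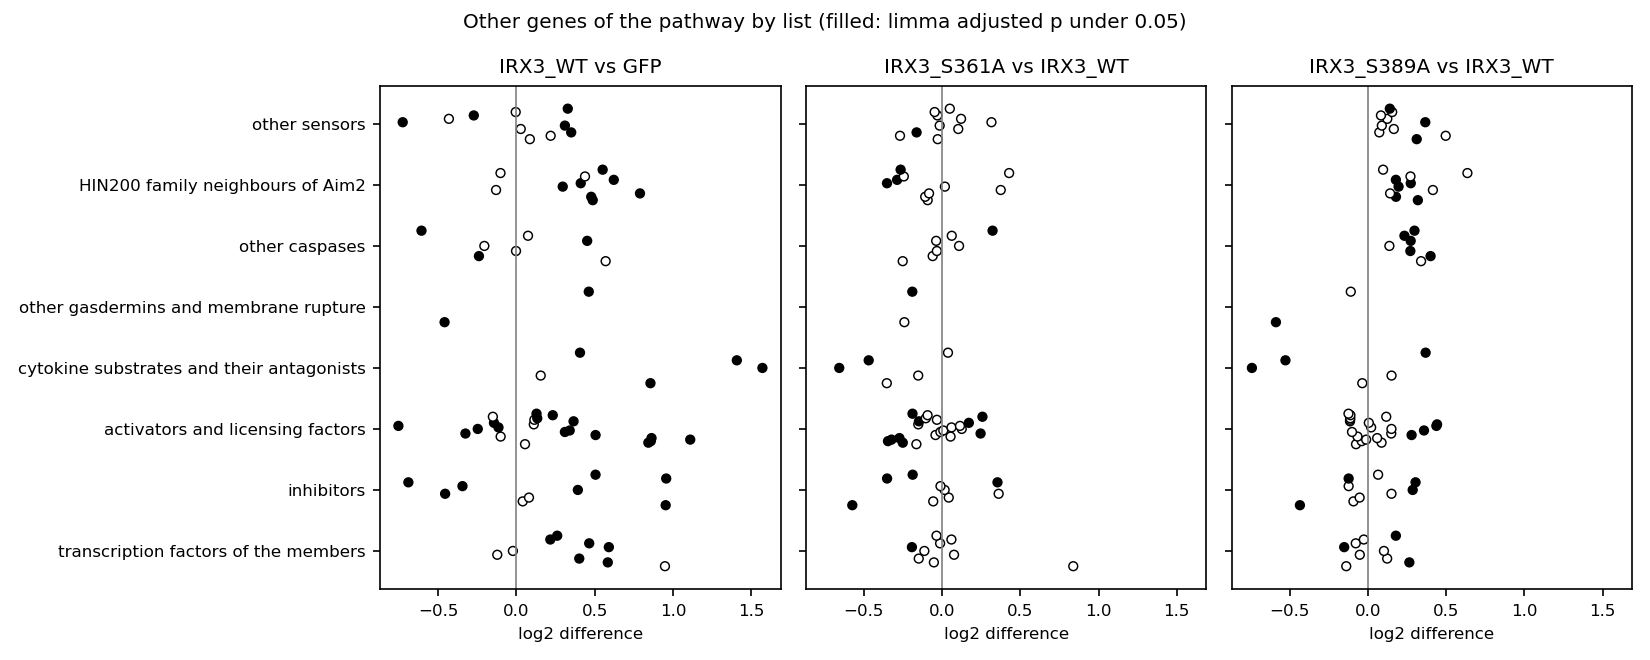
Log2 difference (horizontal axis) of each tested gene of the 8 lists (rows) in 3 comparisons, with filled points where the limma adjusted p was under 0.05. With IRX3_WT against GFP 37 of 73 points are filled to the right of 0, and with IRX3_S361A against IRX3_WT 17 are filled to the left.

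Over the 12 libraries, likeness of pattern was described by Pearson's r on log2(normalized count + 1), which rests mostly on the 4 group means and on libraries that all genes share. Among the members, Nlrp3 and Mefv had r = 0.98, Casp1 and Casp4 r = 0.96, and Mefv and Casp4 r = 0.93. Nlrp3 and Casp4, Mefv and Casp1, and Aim2 and Casp1 each had r = 0.89, and Nlrp1b and Casp4 r = -0.82. Searched among 8752 genes with a mean of at least 100 normalized counts, the closest genes to Nlrp3 were Pde4b (r = 0.993), Gpd2 and Stx6, and to Mefv Notch2 (0.995), Stim2 and Sept11. Those closest to Aim2 were Ifit2 (0.982), Tnfsf4 and Tnfsf10. Casp1 was nearest to Trim30c (0.994), Tut7 and Ddx58, and Casp4 to Acod1 (0.990), Parp9 and Larp1. Gsdmd was nearest to Brd2 (0.968), Nlrp1b to Pkib (0.952), Nlrc4 to Slc25a37 (0.949) and Nek7 to Asah1 (0.890).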

How the data were processed

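RNA of 12 libraries (4 constructs, 3 libraries each) was sequenced. Per the submitters' processing notes, the mm10 build, StringTie 1.3.5, HISAT2 2.1.0 and Trimmomatic were used. The sources used here do not give the read counter, its strand setting or the annotation release. The deposited values are a signal, the gene's read count divided by 1 size factor per library: all values (100%) were whole multiples of 1 step per library to a tolerance of 1e-06. Whole reads were computed from that step in all 12 libraries. In 9 of them the step differed from 1 by over 1%, and the fit named edgeR on 9 libraries used only these. Of the gene IDs, 99.5% had a match in GENCODE M21, which uses GRCm38, the assembly of mm10.

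A gene entered the test if 3 or more libraries reached 10 normalized counts (13369 genes), and was tested with limma 3.58.1 (trend and robust) in R 4.3.3 on log2(value + 1). The fit held all 12 libraries and left 8 residual degrees of freedom. Adjustment was by Benjamini-Hochberg over all genes tested. A fold change on this scale understates that of low genes. The alternatives were pseudocounts of 0.5 and 5, no filter, equal library totals, edgeR 4.0.16 and DESeq2 1.42.0 on recovered reads, a fit of only the 2 groups compared, a replicate block and each library left out. Added after seeing the data were edgeR on the 9 libraries and removal of the trend with GC content. The 9 libraries leave out replicates 2 and 3 of IRX3_S361A and replicate 2 of IRX3_S389A. The limma test was tested on simulated data. The members and lists were chosen with earlier results of these data known. From each list up to 4 tested genes with the smallest p over the 4 groups could be named, and for likeness the 3 genes with the highest r. Not every gene so chosen is named, and an item withheld for evaluation is not reported here. Mnda was the listed gene with no match, Irgb10 was read as Gm12250, and mast cell, basophil and erythroid markers summed to at most 4.92. No libraries of a group were duplicates: chi-square per degree of freedom between replicates was 2.67 to 4.96.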

Additional observations from a re-analysis of the deposited data

How the results depend on the processing

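Over the 10 genes and 6 comparisons, 1254 values under alternatives kept their direction and side of the threshold, 31 lost a call, 23 gained one and 12 changed sign, the last all among values that had not passed the test. The sign changes were Pycard in IRX3_WT against GFP without GFP replicate 3 (0.024, the range without 1 library being -0.16 to 0.024), and in IRX3_S389A against GFP without GFP replicate 3 (0.079) or IRX3_S389A replicate 2 (0.039), in a range from -0.088 to 0.079, and with edgeR on 9 libraries (0.016). Nek7 changed sign in IRX3_S361A against IRX3_WT with equal totals (0.029) and the GC trend removed (0.059), and in IRX3_S389A against GFP with equal totals (-0.10). The others were Casp4 in IRX3_S361A against IRX3_WT with the GC trend removed (0.0057), Nlrp1b in IRX3_S389A against IRX3_WT without IRX3_WT replicate 2 (0.0067) or IRX3_S389A replicate 1 (0.017), in a range from -0.079 to 0.017, and Nlrc4 in IRX3_S361A against GFP with equal totals (-0.0011) and edgeR on 9 libraries (-0.046). On 9 libraries edgeR called 1374 genes in IRX3_S361A against IRX3_WT, 2249 in IRX3_S361A against GFP and 430 in IRX3_S389A against IRX3_S361A, where edgeR on all 12 called 2061, 3510 and 1371 and limma on all 12 called 2071, 3457 and 1359. In the last comparison, IRX3_S389A against IRX3_S361A, 2 members were called with equal totals in place of 5. Fewer were also called with edgeR on 9 libraries, where this comparison sets replicates 1 and 3 against replicate 1 alone. The cause was not tested in either setting. Leaving out 1 library at a time, members called ranged from 8 to 8 in IRX3_WT against GFP, 2 to 5 in IRX3_S361A against IRX3_WT, 4 to 5 in IRX3_S389A against IRX3_WT, 6 to 7 and 8 to 8 for the substituted forms against GFP, 2 to 5 between them, and 8 to 9 for any difference. Counts over all genes ranged, in the same order, from 4572 to 5364, 1483 to 2172, 1448 to 2173, 2878 to 3528, 3998 to 4761, 904 to 1415 and 5256 to 5876. The labels number the libraries 1 to 3 in each group, but same-numbered libraries did not deviate together (r from -0.04 to 0.03 over 18 pairs, and 4 of 12 libraries were closest to their own number). With the replicate block, 8, 4, 4, 6, 8 and 5 members were called and 9 for any difference, and over all genes 5241, 2023, 1982, 3387, 4637, 1322 and 5826. Differences between the least abundant genes, Pycard and Nlrp1b, are the least precise, with SEs of 0.10 and 0.12 on the log2 scale.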

Other observations

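P2rx7, the ATP-gated channel whose opening is the classical second signal for NLRP3, was chosen from the list of activators after its values were seen. It had 564 ± 29.0 (SD, n = 3) normalized counts in GFP, 334 ± 9.42 with IRX3_WT, 362 ± 27.8 with IRX3_S361A and 453 ± 8.52 with IRX3_S389A. It fell by 0.75 on the log2 scale with IRX3_WT against GFP. Against IRX3_WT it rose by 0.44 with IRX3_S389A, and the difference of 0.11 with IRX3_S361A did not pass the test (limma adjusted p = 0.382). From IRX3_S361A to IRX3_S389A it rose by 0.32 (limma adjusted p = 0.0044).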
